A study of Mus musculus with 6 samples.

Results

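The Ly49 receptors are the mouse lectin-like receptors encoded by the Klra genes, and 10 of them were examined here among the 23942 genes of the deposited table: Klra1, Klra2, Klra3, Klra4, Klra5, Klra6, Klra7, Klra8, Klra9 and Klra17. They were picked by gene symbol. RNA was sequenced from liver group 1 innate lymphoid cells (ILC1s), interferon-gamma producers that stay in the tissue and are related to natural killer (NK) cells. The memory group held 3 libraries from animals at day 30 with a treatment that the labels call OXA and do not spell out, and the naive group held 3 libraries from animals at day 0 given solvent. Each group has its own treatment and its own day, and the effects of these cannot be told apart. The sources used here do not give the strain, the age of the animals, any pooling or the sort that gave the cells. Nothing in the labels ties a replicate to its own animal, so p-values here reflect the scatter among libraries, possibly only technical scatter.

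Ly49 receptors are paired type II membrane proteins on the cell surface, and most of them read MHC class I molecules on neighbouring cells. Inhibitory members carry an immunoreceptor tyrosine-based inhibitory motif (ITIM) in the cytoplasmic tail, which recruits the phosphatase SHP-1 and raises the threshold for killing. Activating members lack it and signal through the adaptor DAP12. The genes lie side by side in the NK gene complex, and the set carried differs between mouse strains. Ly49B (Klra2) and Ly49Q (Klra17) stand apart, being known from myeloid cells and, for Ly49Q, from plasmacytoid dendritic cells.

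The difference between the signalling classes can be read in the first 60 coding bases, shown here for the 3 members whose RNA passed the test below and for the 2 activating members. Capitals mark the 18 bases that encode an ITIM, found in the reading frame of the GENCODE M21 transcripts (build GRCm38, all on the minus strand). The stretches lie at chr6:130191242-130191301 for Klra9, chr6:129911402-129911461 for Klra5, chr6:131245267-131245326 for Klra2, chr6:130065243-130065302 for Klra4 and chr6:130128101-130128160 for Klra8.
Klra9: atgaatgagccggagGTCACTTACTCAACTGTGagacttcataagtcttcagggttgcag
Klra5: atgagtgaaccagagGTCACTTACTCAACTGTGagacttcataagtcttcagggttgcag
Klra2: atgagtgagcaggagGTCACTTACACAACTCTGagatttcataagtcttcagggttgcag
Klra4: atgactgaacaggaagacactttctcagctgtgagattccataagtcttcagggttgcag
Klra8: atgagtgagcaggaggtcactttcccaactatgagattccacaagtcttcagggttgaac
The motif began at codon 6, with its tyrosine at codon 8, in all 8 members known as inhibitory, and it was absent from the first 30 codons of Klra4 (Ly49D) and Klra8 (Ly49H). The lines also show how alike the copies are. Klra3 and Klra9 were the closest pair over the whole coding sequence, at 95.9% identity over 798 aligned bases, while Klra2 was at 72.7% to 75.5% identity to every other member.

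Reads from such copies can be assigned to the wrong gene or left out. Cut into words of 50 bases, 31.5% of the distinct words of Klra9 transcripts, 33.1% of Klra8, 20.7% of Klra3 and 12.3% of Klra7 also occurred in another gene. With words of 100 bases these shares were 4.07% for Klra9, 14.4% for Klra8, 1.78% for Klra3 and 1.83% for Klra7. Klra8 shared most with the pseudogene Klra14-ps at both lengths. Klra5 shared 0.655% of its words of 50 bases, and Klra2 and Klra17 shared none at either length. The levels of Klra5, Klra2 and Klra17 were therefore little exposed to reads shared between genes, and those of Klra9, Klra3 and Klra8 were more exposed. The sources used here do not give the read length.

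**Figure D1:**
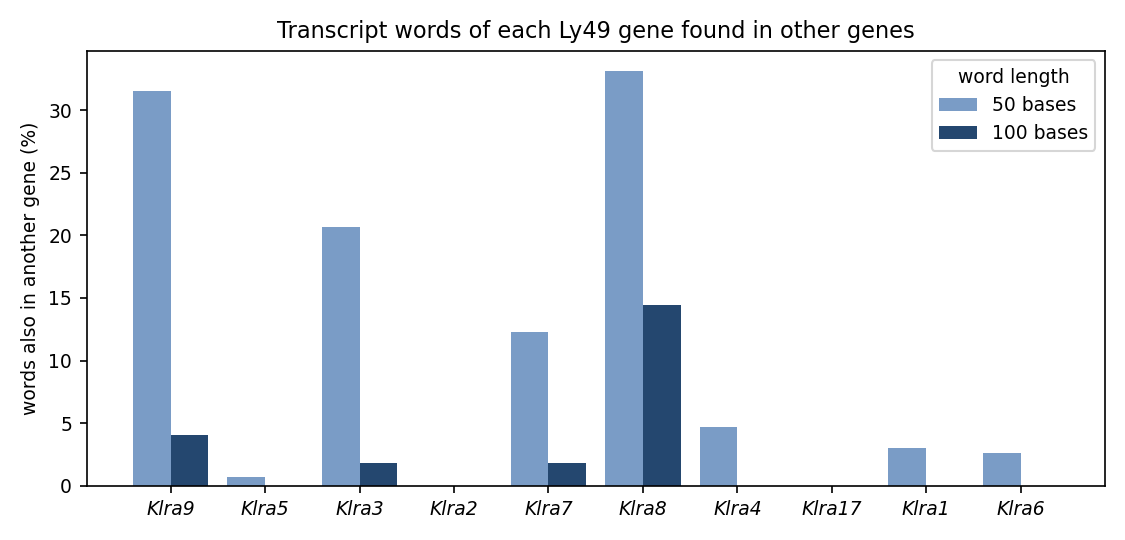
Percentage of each gene's distinct transcript words, of 50 bases (light bars) and 100 bases (dark bars), that also occur in a transcript of another gene; genes run from the highest to the lowest mean level. Klra8 has the tallest bars (33.1% and 14.4%), and Klra2 and Klra17 have none.

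Values were deposited as RPKM, reads per kilobase of exon and per 1000000 assigned reads. Libraries held 18697093 to 23795266 recovered reads, and 3 reads, taken as the floor below which a level is not readable, corresponded to 0.126 to 0.16 RPKM for 1 kilobase of exon. The ILC1 label held in both groups: Ncr1, the NKp46 gene, averaged 505 ± 12.95 RPKM in memory and 488 ± 9.45 RPKM in naive libraries (SD, n = 3 each), and Eomes, which encodes a T-box factor needed by NK cells, averaged 1.19 RPKM in memory and 0.81 RPKM in naive libraries. Of 12 ILC1 identity genes none was called by limma (4 at an unadjusted p under 0.05, 3 called by voom), where called means an adjusted p under 0.05.

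The family's RNA was dominated by 2 inhibitory members. Klra9 (Ly49I, a receptor for the class I molecule H-2Kb) and Klra5 (Ly49E, known from fetal NK cells and from liver ILC1s) together made up 72.6% to 77.3% of the summed Ly49 RPKM in memory libraries and 84.6% to 85.2% in naive libraries. The sum includes Klra2, whose higher level in memory libraries by itself lowers the share of the others there. In memory libraries the order by mean level was Klra9, Klra5, Klra2, Klra3, Klra7, Klra8, Klra17, Klra4, Klra1 and Klra6, and the ranges of neighbours overlapped between Klra3 and Klra7 and from Klra17 down to Klra6. In naive libraries it was Klra9, Klra5, Klra3, Klra8, Klra7, Klra2, Klra4, Klra1, Klra17 and Klra6, with overlap between Klra8 and Klra7, between Klra2 and Klra4, and from Klra1 down to Klra6. Klra2 thus stood at rank 3 in memory and at rank 6 in naive libraries.

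**Figure D2:**
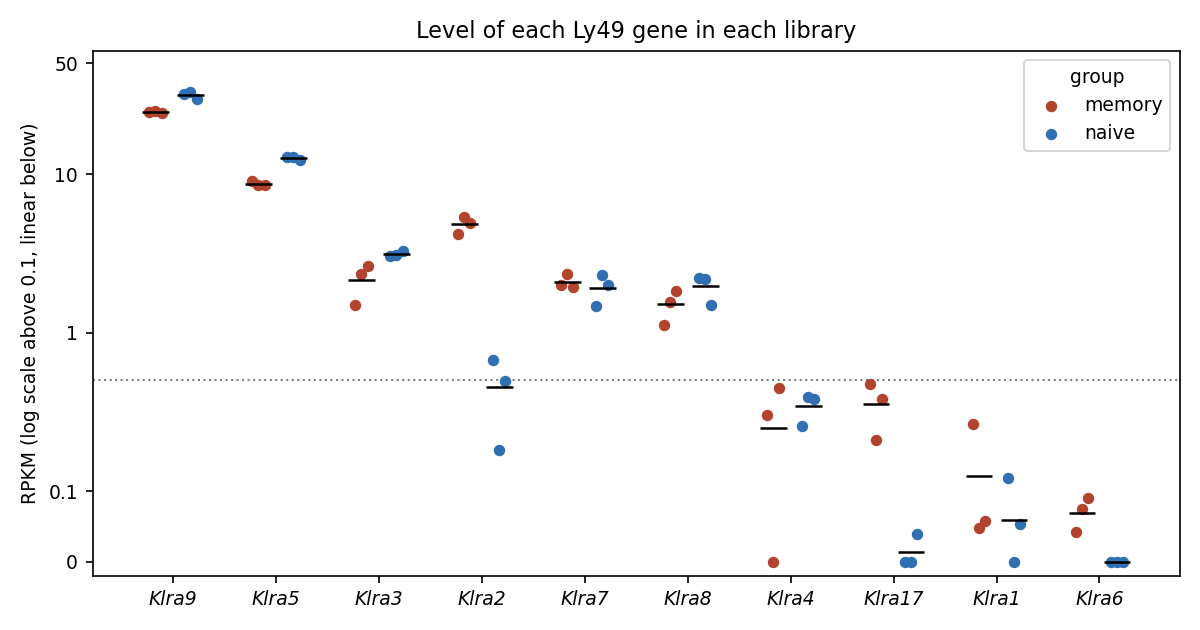
RPKM of each of the 10 Ly49 genes in each library (points; log scale above 0.1 RPKM, linear below), memory in red to the left and naive in blue to the right of each gene, with black lines at group means and a dotted line at the 0.5 RPKM filter. Klra2 has the largest upward difference between group means in RPKM (4.82 RPKM in memory and 0.45 RPKM in naive), and Klra9 and Klra5 are lower in every memory library than in any naive one.

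Averaged over all 6 libraries, 6 of the 10 members reached 0.5 RPKM and were tested, among 13793 genes. By limma 3 of the 6 were called, against 4.17% of all tested genes: Klra2 rose (3.2% of all genes did) and Klra5 and Klra9 fell (0.972% did). By voom the same 3 were called in the same directions, where 5.76% of all genes were higher and 2.52% lower. The sign of the change was positive for 2 of the 6, Klra2 and Klra7, and for 54.6% of all genes. Memory and naive values did not overlap for 4 of the 6, against 24.1% of all genes. They were lower in memory for Klra9, Klra5 and Klra3 (9.24% of all genes) and higher for Klra2 (14.9%). Klra2 entered the test through its memory level, its naive mean being under the filter, so its place in these counts supports nothing by itself.

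Klra5 fell in memory. It was at 8.99, 8.51 and 8.54 RPKM in memory libraries, against 12.9, 12.8 and 12.3 RPKM in naive libraries. The ranges lay well apart, and no library in either group stood off from its own. These values rested on 787 reads in memory and 1064 reads in naive libraries. The log2 change was -0.50 (SE 0.05, limma adjusted p = 0.00327), where the change is the memory minus naive difference in log2(RPKM + 1). In these bulk libraries, fewer cells with Klra5 and less Klra5 RNA per cell cannot be told apart, which holds for every result here.

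Klra9, the most abundant member, fell too. It was at 24.7, 24.9 and 24.2 RPKM in memory libraries, against 32.0, 33.0 and 29.9 RPKM in naive libraries. The 3 memory values were nearly level, and the lowest naive value lay above all of them. The log2 change was -0.35 (SE 0.05, limma adjusted p = 0.0107), and the call was lost without memory replicate 2 (adjusted p = 0.0505) or memory replicate 3 (adjusted p = 0.0515), the range over all alternatives being 0.00597 to 0.0515. The ratio of Klra5 to Klra9 within a library, which no scaling of libraries can move, was 0.364, 0.342 and 0.353 in memory and 0.403, 0.388 and 0.411 in naive libraries. It was lower in all 3 memory libraries, but an exact two-sided permutation test with 3 libraries a group cannot go below the p of 0.1 that it gave.

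Klra3 (Ly49C), which also binds H-2Kb and is the closest copy of Klra9, was at 1.48, 2.34 and 2.65 RPKM in memory libraries and at 3.02, 3.10 and 3.25 RPKM in naive libraries. All memory values lay under all naive ones, with memory replicate 1 the lowest. The log2 change of -0.40 (SE 0.15) was not called (limma adjusted p = 0.229), and without memory replicate 1 it was -0.24. The unadjusted limma p was 0.0321, so the call failed at the adjustment over all tested genes. Klra3 had 39 to 69 reads per memory library and 70 to 85 per naive library. It shared 13.5% of its words of 50 bases with Klra9, and no change of Klra3 is concluded.

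Klra7 (Ly49G), an inhibitory receptor for H-2D molecules, was at 2.01, 2.33 and 1.95 RPKM in memory and at 1.48, 2.29 and 1.98 RPKM in naive libraries. The groups overlapped, with a log2 change of 0.09 (SE 0.13, limma adjusted p = 0.778) whose sign turned without naive replicate 1 (-0.020). Klra1 (Ly49A), another receptor for H-2D, was under the filter, with 10, 2 and 2 reads in memory libraries and 4, 0 and 2 reads in naive libraries. Klra6 (Ly49F) had 1, 2 and 2 reads in memory and 0 reads in each naive library, all at or under the floor of 3 reads per library, so no fold is given.

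The activating members were low in both groups. Klra8, the gene of Ly49H, which binds the m157 protein of mouse cytomegalovirus, was at 1.12, 1.57 and 1.84 RPKM in memory and 2.22, 2.17 and 1.49 RPKM in naive libraries. The groups overlapped (log2 change -0.24, SE 0.16, limma adjusted p = 0.501). Klra4 (Ly49D) was under the filter, with 8, 0 and 11 reads in memory and 6, 10 and 10 reads in naive libraries. Memory replicate 2, the deepest library, had none. The 2 activating members summed to 1.42 to 2.28 RPKM in memory and 1.87 to 2.56 RPKM in naive libraries, against 37.5 to 38.2 RPKM in memory and 47.5 to 51.2 RPKM in naive libraries for the inhibitory members other than Klra2 and Klra17.

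Klra2 rose in memory. The gene of Ly49B, an inhibitory receptor of myeloid cells, was at 4.19, 5.34 and 4.94 RPKM in memory libraries, against 0.68, 0.18 and 0.50 RPKM in naive libraries. Every memory library held several times the highest naive value, and the ratio of the group means was 10.7, from 596 reads in memory and 51 reads in naive libraries. The log2 change was 2.01 (SE 0.16, limma adjusted p = 0.000824), and it was 3.27 with a pseudocount of 0.1 and 3.57 by voom on recovered reads, since a pseudocount of 1 compresses a gene this low in naive libraries.

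Klra17, the gene of Ly49Q, was too low to test. It had 12, 6 and 9 reads in memory libraries and 0, 0 and 1 in naive libraries, or 0.47, 0.21 and 0.38 RPKM in memory and 0, 0 and 0.040 RPKM in naive libraries. The groups did not overlap. Pooled and set against depth, the memory to naive ratio was 25.04 with a 95% exact binomial interval of 4.13 to 1025, which covers counting error only and takes reads as independent. Low counts in these libraries had the pattern of counting both mates, so the interval is likely too narrow even for counting error. Fitted with no filter, the change was not called (log2 change 0.42, SE 0.08, limma adjusted p = 0.0677).

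Genes of macrophages and monocytes moved with Klra2 and Klra17. In that list 14 genes were tested, of which 11 rose and 0 fell, with a median log2 change of 1.021 where the median over all genes was 0.016 and 3.2% of all genes were called higher. Lyz2 and Csf1r were called in every fit. Of the 11 calls, 6 remained without memory replicate 1, 2 or 3, 8 without naive replicate 1, and 7 without naive replicate 2 or 3. Those lost were among C1qa, C1qc, Clec4f, Fcgr1 and Ly6c2. The list summed to 503 to 530 RPKM in memory libraries and 59.7 to 65.8 RPKM in naive libraries, a ratio of means of 8.16. Most of that sum was Lyz2 in both groups, so the ratio mainly follows that gene and not the list as a whole. Lyz2, the lysozyme gene of myeloid cells and the most abundant member, averaged 448 RPKM in memory and 37.8 RPKM in naive libraries, and Csf1r, the gene of the macrophage growth factor receptor, averaged 11.1 RPKM in memory and 1.42 RPKM in naive libraries. Of 7 tested plasmacytoid dendritic cell genes, 2 rose: Siglech, a lectin that marks these cells, averaged 1.08 RPKM in memory and 0.081 RPKM in naive libraries, and Irf8, a factor shared with other lineages, averaged 21.4 RPKM in memory and 17.5 RPKM in naive libraries. Both calls were lost when any 1 library other than memory replicate 3 was left out, and that of Siglech also under quantile normalization (highest adjusted p over all alternatives 0.0886 for Siglech and 0.123 for Irf8). That list summed to 62.9 to 64.6 RPKM in memory and 49.8 to 56.3 RPKM in naive libraries. No gene of the macrophage or plasmacytoid dendritic cell lists was at 0 in all libraries of a group. The part of other cells in the rise of Klra2 was not tested.

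**Figure D3:**
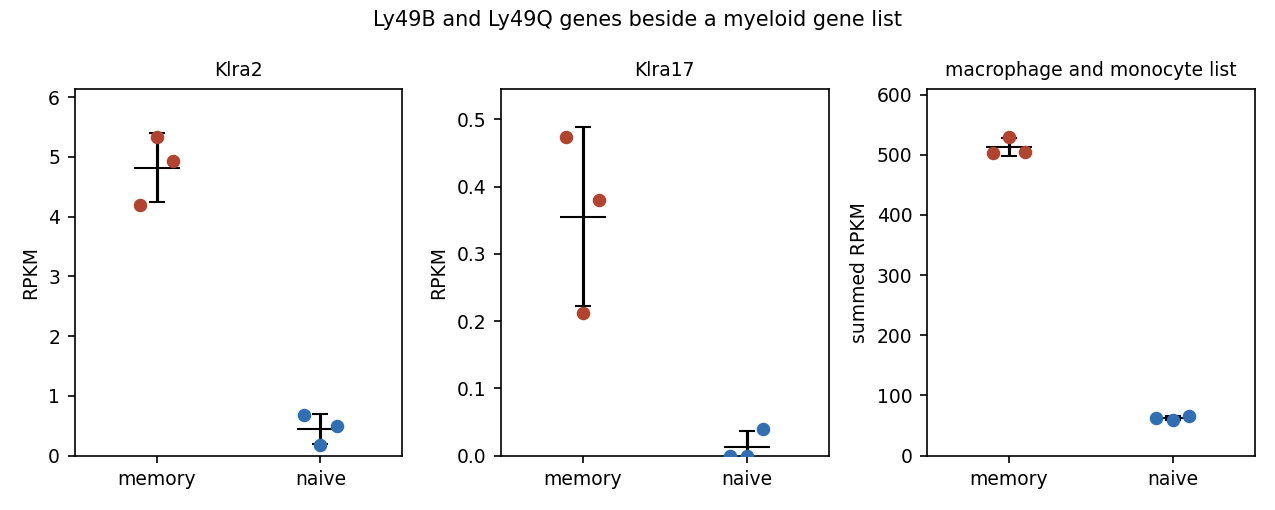
RPKM of Klra2 (left) and Klra17 (middle) and summed RPKM of the 16 macrophage and monocyte genes (right) in each library, memory in red and naive in blue, with the mean and SD in black. All 3 quantities are higher in every memory library than in any naive one. The list is at 503 to 530 in memory and 59.7 to 65.8 in naive libraries, and most of its sum is Lyz2.

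Other lists, named for cell types other than ILC1s, were counted beside the family. Over all tested genes, 3.2% were called higher in memory and 0.972% lower. Of 7 tested dendritic cell and MHC class II genes, 5 rose (sum 332 to 335 RPKM in memory, 47.8 to 52.7 RPKM in naive libraries). Flt3 and Clec9a were at 0 in all naive libraries and, under the filter, averaged only 0.49 and 0.21 RPKM in memory libraries. Of 9 tested NK cell genes, 5 rose (sum 42.8 to 46.7 RPKM in memory, 21.3 to 23.6 RPKM in naive libraries), among them Itgam and Cx3cr1, which monocytes express too. The single tested neutrophil gene, Csf3r, rose. The neutrophil genes Camp, Ltf, Mpo and S100a8 were at 0 in all memory libraries. In naive libraries they averaged only 0.042, 0.0091, 0.026 and 0.093 RPKM, too low for a loss to be read. Of 8 tested T cell genes, 3 fell and none rose (sum 360 to 386 RPKM in memory, 421 to 468 RPKM in naive libraries), of which Tcrg-C1 alone remained called without memory replicate 2. The list was uneven: Trbc1 averaged 174 RPKM in memory and 192 RPKM in naive libraries. Cd3d averaged 0.80 RPKM in memory and 0.65 RPKM in naive libraries, and Trac 0.79 RPKM in memory and 1.40 RPKM in naive libraries. The sum is therefore not a measure of T cells. The B cell list had 2 tested genes and no call by limma or voom (0 at an unadjusted p under 0.05).

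The falls of Klra5 and Klra9 were also measured under other scalings of the libraries. With the library totals recomputed without the genes of the other cell type lists, an alternative chosen after seeing the data, the log2 change was -0.50 for Klra5 and -0.35 for Klra9 (limma adjusted p = 0.00324 and 0.0108). That recomputation multiplied values by 1.002 in each memory library and by 1.001 in each naive library. It could therefore hardly move any change, and nothing is concluded from it. Scaled to the median ratio of the ILC1 identity genes, it was -0.47 for Klra5 and -0.32 for Klra9 (limma adjusted p = 0.00462 and 0.0182). Both genes were called lower under each of these scalings.

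**Figure D4:**
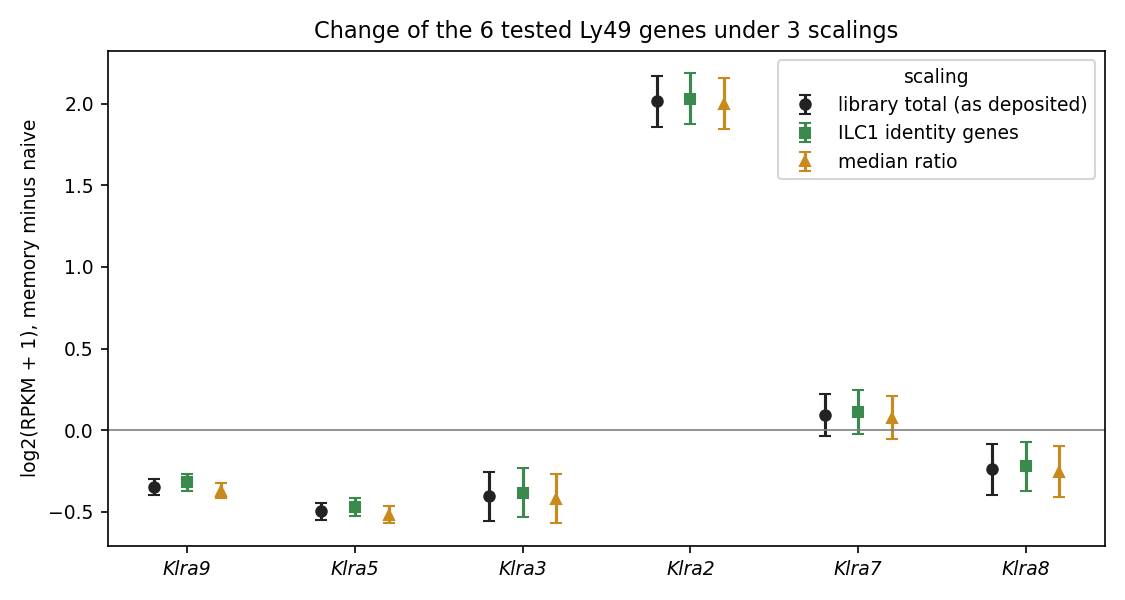
Change in log2(RPKM + 1), memory minus naive, with its standard error, for the 6 tested Ly49 genes under 3 scalings of the libraries (black circles, totals as deposited; green squares, ILC1 identity genes; orange triangles, median ratio). Klra2 lies near 2.0 under each scaling, Klra9, Klra5, Klra3 and Klra8 lie below 0 under each, and Klra7 is within 1 standard error of 0.

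These changes altered the make-up of the family. The summed level of the 10 members was 43.6, 45.3 and 45.1 RPKM in memory libraries and 52.7, 53.9 and 49.9 RPKM in naive libraries. The groups did not overlap. Without Klra2 and Klra17 the sum was 38.9, 39.8 and 39.8 RPKM in memory and 52.0, 53.7 and 49.3 RPKM in naive libraries. Klra2 held 9.61% to 11.8% of the sum in memory libraries and 0.336% to 1.28% in naive libraries. Klra5 held 18.8% to 20.6% in memory and 23.7% to 24.6% in naive libraries, and Klra9 held 53.7% to 56.7% in memory and 59.9% to 61.2% in naive libraries. These shares are of a sum that includes Klra2, so its rise by itself lowers the share of every other member. A lower share of Klra5 or Klra9 is therefore not a separate result. No test was made on sums over the members.

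**Figure D5:**
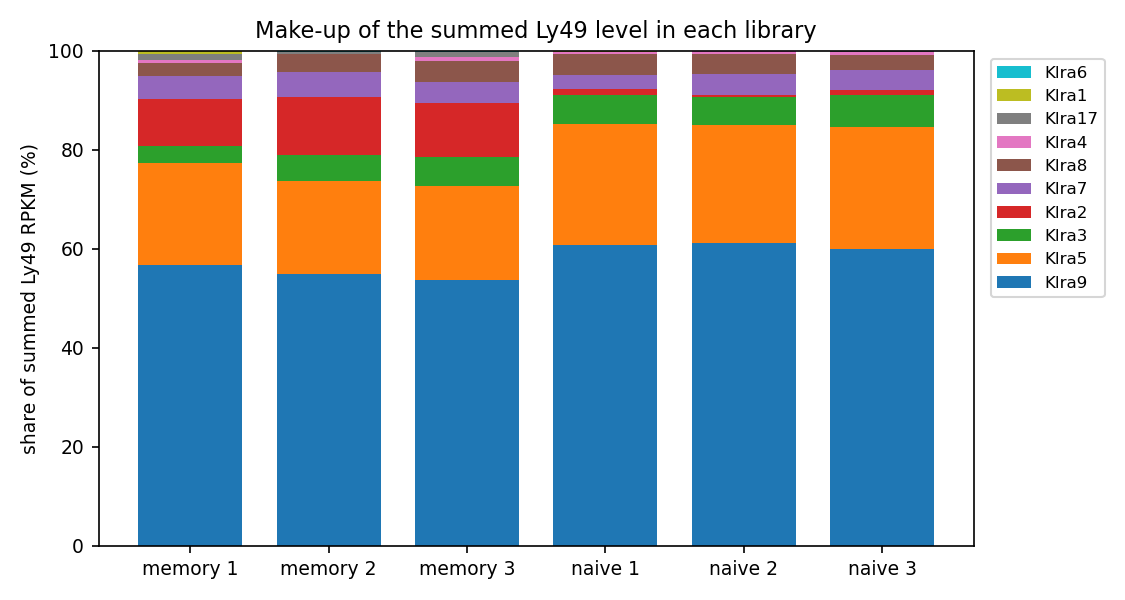
Share of the summed Ly49 RPKM held by each of the 10 genes (stacked colours, percent) in each of the 3 memory and 3 naive libraries. Klra9 (blue) is the largest part throughout, and Klra2 (red) takes 9.61% to 11.8% in memory libraries and at most 1.28% in naive libraries.

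On chromosome 6 (build mm10, positions per the file's exon table) the members run from Klra17 (129831154 to 129876672) through Klra5 (129898996 to 129917650), Klra6, Klra4, Klra8, Klra9 (130178675 to 130193112), Klra7 and Klra3 to Klra1 (130363917 to 130386874), all on the minus strand. Klra2 (131219223 to 131247362) lies 832348 bases beyond Klra1. No other row of the table overlapped the span of a member. Magohb, a gene of the exon junction complex that lies beyond Klra2 and the row Gm5582, averaged 10.9 ± 1.55 RPKM in memory and 10.45 ± 0.63 RPKM in naive libraries (SD, n = 3 each). The other Klra rows among the members were not called: Klra10 averaged 3.13 RPKM in memory and 2.83 RPKM in naive libraries, Klra13-ps 1.33 RPKM in memory and 1.35 RPKM in naive libraries, and Klra14-ps 0.88 RPKM in memory and 1.38 RPKM in naive libraries (limma adjusted p = 0.941, 0.984 and 0.705). Klra11-ps had 1 read in memory and 2 reads in naive libraries.

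The promoters of the 3 called members are printed next, aligned at a motif that all 3 hold, because these genes moved in opposite directions. The capitals mark a match, on the opposite strand, to GAGGAA, a core bound by ETS factors such as PU.1. The RefSeq start of Klra5 lies downstream of the start of the span counted for it (129898996 to 129917650), so its stretch falls inside that span. Those of Klra9 and Klra2 fall outside the spans counted for them. The stretches (RefSeq starts, build GRCm38.p6, minus strand) lie at chr6:129913283-129913363 for Klra5, chr6:130193119-130193199 for Klra9 and chr6:131247402-131247482 for Klra2.
Klra5: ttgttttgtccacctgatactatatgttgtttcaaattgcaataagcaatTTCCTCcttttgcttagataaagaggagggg
Klra9: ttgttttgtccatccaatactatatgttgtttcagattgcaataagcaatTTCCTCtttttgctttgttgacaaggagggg
Klra2: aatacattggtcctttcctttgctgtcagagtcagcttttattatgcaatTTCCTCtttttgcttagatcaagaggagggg
All 10 members matched a RefSeq promoter window (250 bases before to 50 after a transcript start), giving 12 windows. GAGGAA, searched on both strands, was in 10 of the 12, and in 28.3% of all 32851 windows. TGTGGT, a RUNX motif, was in 1 of the 12 (16.8% of all), CTTTGA, a TCF and LEF motif, in 3 (16% of all), and GGTGTG, a T-box motif, in 2 (19.0% of all), both strands searched. The windows of the family are copies of each other and not independent, and a match is only a description of letters. A window with GAGGAA was held by Klra2, which rose, and by Klra5 and Klra9, which fell.

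Of 12 tested adaptor and signalling genes, which carry the receptors' signals inward, 1 rose and 1 fell (3.2% of all genes tested were called higher and 0.972% lower). The median log2 change of these genes was -0.035, against 0.016 over all genes. The kinase gene Syk, which acts downstream of DAP12 and is also expressed by myeloid cells, averaged 14.0 ± 0.25 RPKM in memory and 10.9 ± 0.43 RPKM in naive libraries (SD, n = 3 each; log2 change 0.33, limma adjusted p = 0.0160). Its relative Zap70, a kinase of T and NK cells, averaged 84.7 ± 4.07 RPKM in memory and 100.2 ± 2.91 RPKM in naive libraries (log2 change -0.24, limma adjusted p = 0.0369). The Syk call was lost when any 1 library other than naive replicate 2 was left out. The Zap70 call was lost when any 1 library other than memory replicate 1 was left out, with no filter and when scaled to ILC1 identity genes. The highest adjusted p over all alternatives was 0.0783 for Syk and 0.134 for Zap70. Ptpn6, the gene of SHP-1 and the most abundant of the list, averaged 201 RPKM in memory and 199 RPKM in naive libraries. Tyrobp, the gene of DAP12, named after its values were seen, averaged 150 RPKM in memory and 152 RPKM in naive libraries, far above the activating Ly49 genes in both.

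A list of 9 genes held MHC class I molecules and their peptide loading, and not all of its products are Ly49 ligands. None of the 9 was called by limma (3 at an unadjusted p under 0.05, 2 called by voom). H2-K1, the gene of the H-2K molecule that Ly49I and Ly49C bind, averaged 2382 ± 87.4 RPKM in memory and 2291 ± 57.9 RPKM in naive libraries (SD, n = 3 each). Of 14 transcription factor genes known to act on Ly49 or NK cell genes, among them Tcf7, Runx3 and Tbx21, none was called by limma (1 at an unadjusted p under 0.05, 1 called by voom). The most abundant, Id2, averaged 208 RPKM in memory and 204 RPKM in naive libraries.

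Of 13 tested receptor genes elsewhere in the NK gene complex, 2 fell and none rose (0.972% of all genes were called lower), with a median log2 change of -0.10. Of these 13, 8 had an unadjusted p under 0.05 in limma. By voom 6 were called in either direction, where 5.76% of all genes were higher and 2.52% lower. Klri1, a partner chain of Klre1, averaged 38.9 ± 2.15 RPKM in memory and 49.0 ± 3.49 RPKM in naive libraries, and Klre1 averaged 165 ± 4.19 RPKM in memory and 187 ± 4.30 RPKM in naive libraries (SD, n = 3 each; limma adjusted p = 0.0447 and 0.0417). The Klre1 call was lost when any 1 of the 6 libraries was left out and under quantile normalization, and the Klri1 call when any 1 library other than naive replicate 3 was left out. Both were lost with no filter and when scaled to ILC1 identity genes (highest adjusted p over all alternatives 0.160 for Klre1 and 0.142 for Klri1). The log2 changes of -0.32 for Klri1 and -0.18 for Klre1 stood beside -0.50 for Klra5 and -0.35 for Klra9. Klrb1b, the most abundant, averaged 237 RPKM in memory and 251 RPKM in naive libraries and was not called.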

How the data were processed

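One table of gene values was analysed. Its values are RPKM made by the authors, with exon positions and lengths per the file headers. Without role or order, the submitters' processing notes list mm10, edgeR 3.12.1, Subread 1.5.1, featureCounts and STAR 2.5.3a. The sources used here do not give the handling of multi-mapping reads, the strand setting or any molecular identifiers. Grouping and replicate numbers follow the labels. Dividing each value by what 1 read is worth gave a whole number, to within 0.01, in 100% of cases. Low counts (1 to 10) were even in 69.8% to 72.3% of genes, the pattern of counting both mates, so independent molecules number fewer than reads.

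The main test was limma-trend (R 4.3.3, limma 3.58.1) of log2(RPKM + 1), restricted to genes averaging 0.5 RPKM or more, with Benjamini-Hochberg adjustment over 13793 genes and a threshold of 0.05. It was first run on simulated reads with known changes. Those reads were independent and had the same dispersion for every gene, whereas low counts here had the pattern of counting both mates. That run therefore checks the code and not the error rate in these data. The members, the gene lists and the tests were chosen with earlier results of these data known. Named genes are the members, the other Klra rows, a neighbour, and from each list up to 3 called genes by adjusted p and the most abundant one. Eomes, Tyrobp, Cd3d, Trac, list genes at 0 and those whose calls were lost were named after their values were seen. Alternatives were pseudocounts of 0.5 and 0.1, no filter, a 2 RPKM filter, 3 scalings, the replicate number as a block, voom on recovered reads, array weights and each library left out in turn. Words, coding sequences and identities came from GENCODE M21, with global alignment, and promoters from RefSeq. Other steps used scipy 1.17.1 and matplotlib 3.10.9 under Python 3.11.15.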

Additional observations from a re-analysis of the deposited data

How the results depend on the processing

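The rise of Klra2 and the fall of Klra5 were called in all 18 fits run, with log2 changes of 1.87 to 3.57 for Klra2 and -0.54 to -0.47 for Klra5. Klra9 was called in 16 of 18 and lost only without memory replicate 2 or 3. Klra3 and Klra8 kept their sign and were called in no fit. Klra7 ranged from -0.020 (without naive replicate 1) to 0.18 (without naive replicate 2) and kept its sign in every other fit. The members called numbered 2 to 3 when a library was left out. Over all genes, 575 were called (441 higher and 134 lower, or 472 and 72 when scaled to ILC1 identity genes), 275 to 387 when a library was left out, 1141 by voom on recovered reads and 271 when the replicate number was a block. Over the accompanying lists, 31 were called, 18 to 23 when a library was left out and 18 with the block. The numbers do not pair the libraries: deviations of same-numbered libraries from their group means correlated at -0.084, -0.0395 and -0.00297, and no memory library correlated best with its own number. The block called the same 3 members. Among genes named with a call it ended those of Syk, Zap70, Klri1, Klre1, Siglech, Irf8, C1qc, Clec4f, Fcgr1 and Ly6c2, and the cause of the lower counts was not tested. The summed Ly49 level had a log2 ratio of means, memory over naive, of -0.22, with -0.25 to -0.20 when a library was left out. It was -0.16 as a share of all reads, where long genes such as Klra2 weigh more, and -0.39 without Klra2 and Klra17. Depth limits Klra1, Klra4, Klra6 and Klra17, which had 0 to 12 reads per library.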
